A study of Mus musculus with 8 samples.

Results

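Kit, Ano1, Uchl1, Elavl4, Ret, Sox10, S100b and Gfap mark interstitial cells of Cajal, enteric neurons and enteric glia, and their RNA was followed through 8 sequencing libraries of mouse colon adenomas and non-adenoma colon. The 8 genes were chosen by symbol as markers of these cells, and all 8 were found among the 31189 genes of the tables. Kit, Uchl1, Elavl4, Sox10, S100b and Gfap fell in adenomas in the test over both models, with log2 fold changes from -2.29 to -4.51. Elavl4, Sox10, S100b and Gfap reached the filter on low values only in both sections and ApcMin/+ adenoma 3. They entered the test through libraries in which they were high, so their calls do not speak for them independently. The value of -4.51 is that of Sox10, which had no count in AOM/DSS adenomas. Ano1 did not pass the test in that comparison, and Ret showed no common direction. Uchl1 was also lower in AOM/DSS adenomas than in ApcMin/+ adenomas, with a log2 difference of -3.39 ± 0.52 (SE; adjusted p = 0.0108). It reached the filter on low values in both sections and the ApcMin/+ adenomas, but in no AOM/DSS adenoma, so it entered through libraries where it was high.

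All mice were C57BL/6J. ApcMin/+ mice, which carry 1 mutant copy of the WNT inhibitor Apc and received no treatment, were killed at an age of 110 to 120 days. The other mice were wild-type C57BL/6J animals given azoxymethane (AOM, a carcinogen, 10 mg/kg by intraperitoneal injection) when 6 to 7 weeks old followed by 3 rounds of drinking water with 2% dextran sulfate sodium (DSS), an agent that damages the colonic epithelium. They were killed 70 days after AOM, and sequencing of these adenomas by the submitters found β-catenin that resists degradation, with Apc wild type. Each model gave 3 adenomas and 1 section of neighbouring non-adenoma colon, so there were 6 adenomas and 2 sections. Totals ranged from 18156741 to 22719895 counts per library, and values below are library-size-scaled counts (CPM, with TMM factors) unless FPKM, a length-scaled unit, is named. The mouse behind each section is not named, and separate mice for the adenomas of a model are not stated. The p-values therefore measure the spread between these samples, which may be technical. Among the adenomas, ApcMin/+ adenoma 3 lay nearest to the sections on the first principal component, at -16.4 against 49.4 and 54.9 for ApcMin/+ adenomas 1 and 2, and calls within the models that change without it are named beside their values.

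The enteric nervous system is a network of neurons and glia that lies in plexuses within the muscle wall and beneath the mucosa, and it derives from the neural crest. Neural crest precursors need the receptor tyrosine kinase RET and its ligand GDNF to colonise the gut, and SOX10 keeps their progenitors and later marks glia. Interstitial cells of Cajal lie beside the plexuses and the smooth muscle, need the receptor KIT to survive, and pace contractions through the chloride channel ANO1. KIT is also carried by mast cells and by deep crypt secretory cells of the colon, and ANO1, RET and UCHL1 are not restricted to these lineages either.

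RefSeq promoters were at hand for 6 of the 8 genes, in build GRCm38.p6, as the 250 bases before the annotated start. Those of Kit, Uchl1, S100b and Gfap are shown because these genes represent the 3 cell types and fell together in adenomas. They lie at chr5:75574737-75574986 (plus strand), chr5:66675871-66676120 (plus strand), chr10:76253586-76253835 (plus strand) and chr11:102897201-102897450 (minus strand), and each is written 5′ to 3′ on the strand of its gene. Capitals mark the E-box CAGTTG, the form of CANNTG found in S100b.
Kit: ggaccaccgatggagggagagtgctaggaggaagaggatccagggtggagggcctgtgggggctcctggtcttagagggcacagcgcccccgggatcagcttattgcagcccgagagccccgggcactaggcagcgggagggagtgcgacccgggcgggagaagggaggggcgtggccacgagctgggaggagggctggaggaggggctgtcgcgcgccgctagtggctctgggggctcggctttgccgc
Uchl1: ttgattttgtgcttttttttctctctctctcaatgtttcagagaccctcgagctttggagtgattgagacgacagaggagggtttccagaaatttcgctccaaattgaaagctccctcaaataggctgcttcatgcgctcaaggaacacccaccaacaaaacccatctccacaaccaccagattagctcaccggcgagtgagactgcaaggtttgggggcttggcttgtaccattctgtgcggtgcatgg
S100b: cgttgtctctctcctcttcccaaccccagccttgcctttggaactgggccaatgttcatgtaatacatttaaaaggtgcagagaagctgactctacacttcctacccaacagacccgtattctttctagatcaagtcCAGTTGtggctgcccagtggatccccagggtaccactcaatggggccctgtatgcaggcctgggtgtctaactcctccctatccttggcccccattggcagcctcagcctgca
Gfap: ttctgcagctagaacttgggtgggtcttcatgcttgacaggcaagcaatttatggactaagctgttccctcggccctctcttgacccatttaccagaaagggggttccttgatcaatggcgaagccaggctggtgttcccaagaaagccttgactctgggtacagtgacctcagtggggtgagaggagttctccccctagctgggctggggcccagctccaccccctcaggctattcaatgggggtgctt
The SOX core motifs ACAAAG and ACAATG were searched on both strands and matched none of the 4 windows, which says only that these letters are not there. The first of them contains the TCF/LEF core CAAAG. A SOX core was present in 25.2% of 32851 promoters of this length, and an E-box CANNTG in 66.2%. Of the windows not printed, that of the first annotated Elavl4 start held 1 SOX core, and those of the other Elavl4 starts and of Ano1 held none. G or C made up 70.8% of the Kit window and 72.0% of the Ano1 window, against 48.8% for Uchl1, 53.6% for S100b and 55.6% for Gfap.

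Per transcript length, Ano1 was the most abundant of the 8 genes in every group. In the ApcMin/+ section its FPKM was 76.0, followed by Kit at 25.2, Uchl1 at 15.3, S100b at 1.80, Ret at 1.09, Gfap at 1.02, Sox10 at 0.97 and Elavl4 at 0.71. The AOM/DSS section had the same 3 genes at the top, with Ano1 at 58.8, Kit at 11.1 and Uchl1 at 5.68 FPKM, and Elavl4 again lowest at 0.32. With 1 section per model, the spread behind these orders cannot be measured. In ApcMin/+ adenomas Ano1 stood at 43.1 ± 20.5 FPKM (SD, n = 3), above Uchl1 at 5.08 ± 2.62 and Kit at 4.16 ± 1.67, whose libraries overlapped. Ret followed at 1.21 ± 0.768 FPKM and did not overlap Kit but overlapped S100b and Gfap. S100b, Gfap, Elavl4 and Sox10, at means from 0.203 down to 0.13, overlapped each other. In AOM/DSS adenomas the order was Ano1 at 44.8 ± 6.19, Kit at 2.67 ± 1.04, Ret at 1.21 ± 0.714 and Uchl1 at 0.5 ± 0.167 FPKM, where only Kit and Ret overlapped. The other 4 genes had means of 0.11 FPKM or less there, and all of them overlapped each other except Gfap and Sox10. For Elavl4 the tables disagreed in 1 library, since AOM/DSS adenoma 2 had 0.31 FPKM from 4 counts and its section 0.32 FPKM from 31 counts.

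**Figure D1:**
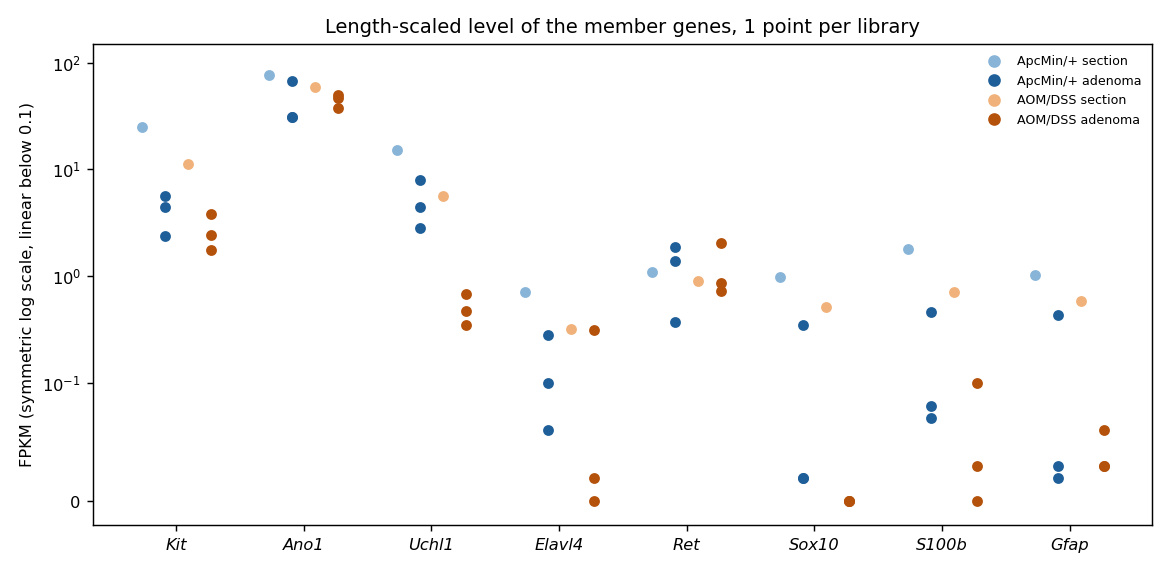
Length-scaled level (FPKM on a symmetric log axis, linear below 0.1) of the 8 genes, with 1 point per library and colours for the 4 groups; libraries with equal values coincide. Ano1 is highest in all groups, Kit and Uchl1 come next in both sections, and the 3 AOM/DSS adenomas lie at 0 for Sox10.

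Kit, the stem cell factor receptor, had 119 CPM in the ApcMin/+ section and 23.3, 13.9 and 35.2 CPM in ApcMin/+ adenomas 1, 2 and 3. In the AOM/DSS model it had 73.1 CPM in the section and 10.6, 20.3 and 14.5 CPM in the adenomas. Every adenoma was below both sections, and the adenomas of the models overlapped. With 248 to 2078 counts per library, Kit was the best counted of the genes that fell. Its log2 fold change was -2.30 ± 0.47 (SE; adjusted p = 0.0297) in the ApcMin/+ model, -2.27 ± 0.48 (adjusted p = 0.0487) in the AOM/DSS model, and -2.29 ± 0.32 (adjusted p = 0.00542) for the 6 adenomas against the 2 sections. The last corresponds to a level 4.88-fold lower, with a 95% interval of 2.93 to 8.13, and it was called in all 17 alternative fits. The ApcMin/+ value alone lost its call without ApcMin/+ adenoma 1 (adjusted p = 0.0861) or 2 (0.0679). The AOM/DSS value lost it without ApcMin/+ adenoma 1 (0.0803) or 2 (0.0632) and without AOM/DSS adenoma 1 (0.0970), 2 (0.0590) or 3 (0.115).

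Ano1, the calcium-activated chloride channel of Cajal cells, had 272 CPM in the ApcMin/+ section and 93.5, 101 and 193 CPM in its adenomas. The AOM/DSS section had 190 CPM and its adenomas 141, 109 and 145 CPM. All adenomas were below their own section, but ApcMin/+ adenoma 3 was above the AOM/DSS section. By edgeR the change was -1.08 ± 0.39 (adjusted p = 0.0958) in ApcMin/+, -0.53 ± 0.40 (0.412) in AOM/DSS and -0.81 ± 0.28 (0.0583) over both, none of them past the threshold. Without ApcMin/+ adenoma 3 the ApcMin/+ value was a call, at -1.48 with an adjusted p of 0.00709, and so was the value over both models, at -1.01 with an adjusted p of 0.0165. DESeq2 called both as well, with adjusted p-values of 0.0234 and 0.0126. The 2 Cajal cell markers thus had different sizes of change over both models, with 95% intervals of -3.02 to -1.55 for Kit and -1.47 to -0.16 for Ano1. The difference between the genes was not tested.

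**Figure D2:**
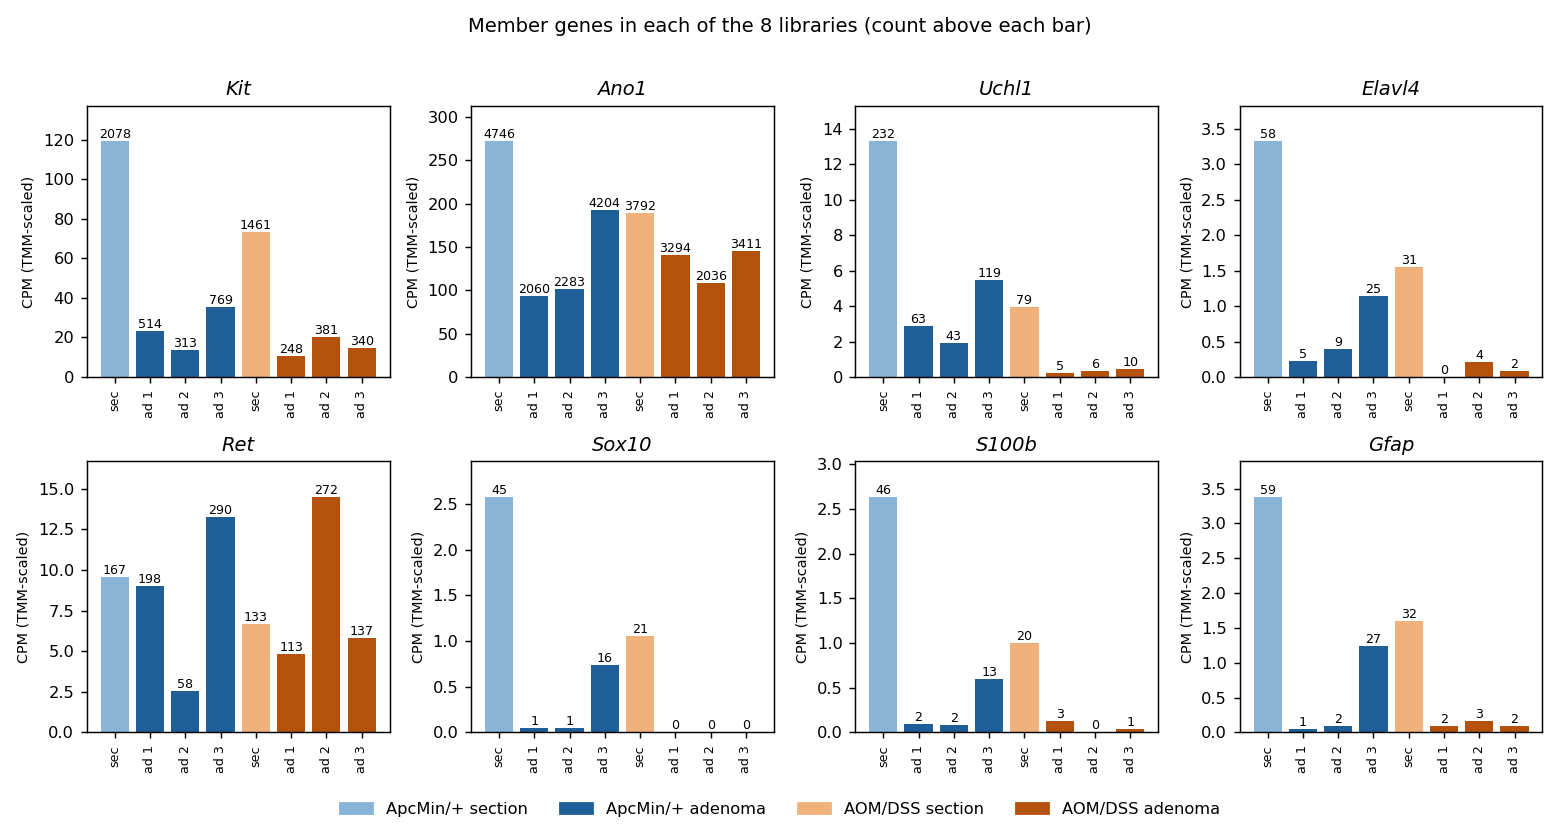
Level of each gene in each library (bars, TMM-scaled CPM from 0, a separate axis per gene), with sections in light and adenomas in dark colours, the ApcMin/+ model in blue and the AOM/DSS model in orange. Numbers above bars are counts; Kit, Elavl4, Sox10, S100b and Gfap are lower in every adenoma than in both sections, and Ret is not.

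Uchl1, a neuronal ubiquitin hydrolase also known as PGP9.5, had 13.3 CPM in the ApcMin/+ section and 2.86, 1.91 and 5.45 CPM in the adenomas. In the AOM/DSS model it had 3.95 CPM in the section and 0.215, 0.320 and 0.426 CPM in the adenomas, from 5, 6 and 10 counts. Every adenoma was below its own section, every AOM/DSS adenoma was below every ApcMin/+ adenoma, and ApcMin/+ adenoma 3 was above the AOM/DSS section. The change was -3.60 ± 0.61 (adjusted p = 0.0334) in the AOM/DSS model and -2.82 ± 0.49 (adjusted p = 0.00777) over both models. In the ApcMin/+ model it was -1.96 ± 0.57 and did not pass (adjusted p = 0.0570), although it did without ApcMin/+ adenoma 3, at -2.48 with an adjusted p of 0.0166. The AOM/DSS call was lost without ApcMin/+ adenoma 1 (0.0580) or 2 (0.0565) and without AOM/DSS adenoma 1 (0.0798), 2 (0.0619) or 3 (0.0821). The call over both models was lost without the AOM/DSS section, at -1.97 with an adjusted p of 0.0574, and in the fit with no term for the model (0.179).

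Elavl4, which encodes the neuronal RNA-binding protein HuD, had 3.32 CPM in the ApcMin/+ section and 0.227, 0.399 and 1.14 CPM in the adenomas. The AOM/DSS section had 1.55 CPM and the adenomas 0, 0.213 and 0.085 CPM, from 0, 4 and 2 counts. All 6 adenomas were below both sections, and the AOM/DSS adenomas lay below the ApcMin/+ adenomas, narrowly so at 0.213 against 0.227 CPM. Over both models Elavl4 fell by 3.19 ± 0.82 on the log2 scale (adjusted p = 0.0220), a call that was lost without AOM/DSS adenoma 3 (adjusted p = 0.0503), without the ApcMin/+ section (0.0982) and without the AOM/DSS section (0.146). It was also lost with no term for the model (0.0992) and with limma on FPKM at pseudocounts of 0.1 and 1 (0.123 and 0.106), and the 17 alternative fits gave values from -3.95 to -0.42. Within the models the values were -2.48 ± 1.07 (adjusted p = 0.138) and -3.95 ± 1.20 (adjusted p = 0.0921).

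Ret, the GDNF receptor kinase that enteric neurons keep, showed no common direction among the adenomas. It had 9.57 CPM in the ApcMin/+ section and 8.99, 2.57 and 13.3 CPM in the adenomas. The AOM/DSS section had 6.66 CPM and its adenomas 4.85, 14.5 and 5.84 CPM. ApcMin/+ adenoma 3 and AOM/DSS adenoma 2 were above both sections, and the other adenomas were below their own section. With 58 to 290 counts per library, the log2 fold change over both models was 0.05 ± 0.63 (adjusted p = 0.958) with a 95% interval of -1.41 to 1.51, which leaves room for a change of either sign.

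Sox10, the neural crest transcription factor of enteric glia, had 2.58 CPM (45 counts) in the ApcMin/+ section and 0.045, 0.044 and 0.733 CPM in the adenomas, from 1, 1 and 16 counts. In the AOM/DSS model it had 1.05 CPM (21 counts) in the section and no count in any of the 3 adenomas. A count of 0 allows up to 3 counts per library, so Sox10 was at least 7.57-fold lower in AOM/DSS adenomas than in their section. Every adenoma was below both sections. Over both models the fitted change was -4.51 ± 1.17 (adjusted p = 0.0230), and it was lost without the ApcMin/+ section (adjusted p = 0.112) or the AOM/DSS section (0.182) and with no term for the model (0.102). In the ApcMin/+ model the change was -3.21 ± 1.45 and did not pass (adjusted p = 0.178), but it passed without ApcMin/+ adenoma 3, at -5.67 with an adjusted p of 0.0239. The AOM/DSS comparison gave an adjusted p of 0.109, or 0.0326 without ApcMin/+ adenoma 3.

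S100b, a calcium-binding protein of glia, had 2.64 CPM in the ApcMin/+ section against 0.091, 0.089 and 0.595 CPM in its adenomas, and 1.00 CPM in the AOM/DSS section against 0.129, 0 and 0.043 CPM. Gfap, the glial intermediate filament, had 3.38 CPM against 0.045, 0.089 and 1.24 CPM in ApcMin/+ and 1.60 CPM against 0.086, 0.160 and 0.085 CPM in AOM/DSS. For both genes all 6 adenomas were below both sections, and ApcMin/+ adenoma 3 was the highest adenoma. Counts in the other 5 adenomas were 0 to 3 for either gene. S100b fell by 3.60 ± 0.83 over both models (adjusted p = 0.0159) and Gfap by 3.32 ± 0.94 (adjusted p = 0.0302). S100b lost its call without the ApcMin/+ section (0.115) or the AOM/DSS section (0.0854). Gfap lost its call without those sections (0.142 and 0.160) and without ApcMin/+ adenoma 2 (0.0501), AOM/DSS adenoma 1 (0.0601) or AOM/DSS adenoma 3 (0.0645), and with no term for the model (0.0764). Within single models neither gene passed, with -3.33 ± 1.14 (adjusted p = 0.0832) and -2.88 ± 1.30 (0.154) for S100b and Gfap in ApcMin/+ and -3.94 ± 1.31 (0.107) and -3.81 ± 1.44 (0.138) in AOM/DSS. Without ApcMin/+ adenoma 3, the ApcMin/+ values were -4.79 (adjusted p = 0.0245) and -5.53 (0.00672), and Gfap passed in AOM/DSS as well (0.0214).

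Counted over all 8 genes, 6 were called lower in the 6 adenomas against the 2 sections, where 15.8% of the 17218 genes tested were called lower. The median log2 change of the 8 genes was -3.01, against 0.07 for all genes. In the ApcMin/+ model 1 gene, Kit, was called lower against 6.35% of all genes, and the median was -2.39 against 0.03. Without ApcMin/+ adenoma 3 that count was 6, and it was 0 without adenoma 1 or 2. In the AOM/DSS model 2 genes, Kit and Uchl1, were called lower against 2.63% of all genes, and the median was -3.71, or -3.26 with Sox10 at its bound, against 0.14. That count was 4 without ApcMin/+ adenoma 3 and 0 without any other adenoma. At an unadjusted p under 0.05 the counts were 4, 6 and 7 of 8 in ApcMin/+, in AOM/DSS and over both models, where 38.1%, 29.9% and 45.8% of all genes tested were at that level.

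The count over both models rested on both sections, being 2 without the ApcMin/+ section, 1 without the AOM/DSS section, and 2 with no term for the model. The comparison over both models uses the same libraries as those within each model, so their values are not independent of one another. Each lone section was assumed to vary like the adenomas. In 5 of the 8 genes every adenoma was below both sections, a pattern that 17.5% of all genes tested had. Kit, Ano1 and Ret reached the filter on low values in all 8 libraries. Uchl1 reached it in 5, namely both sections and the ApcMin/+ adenomas. Elavl4, Sox10, S100b and Gfap reached it only in both sections and ApcMin/+ adenoma 3. Those 4 entered the test through the libraries in which they were high, so the counts and medians above do not speak for them independently. The same limit applies to genes of the marker lists below that reached the filter only where they were high.

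**Figure D3:**
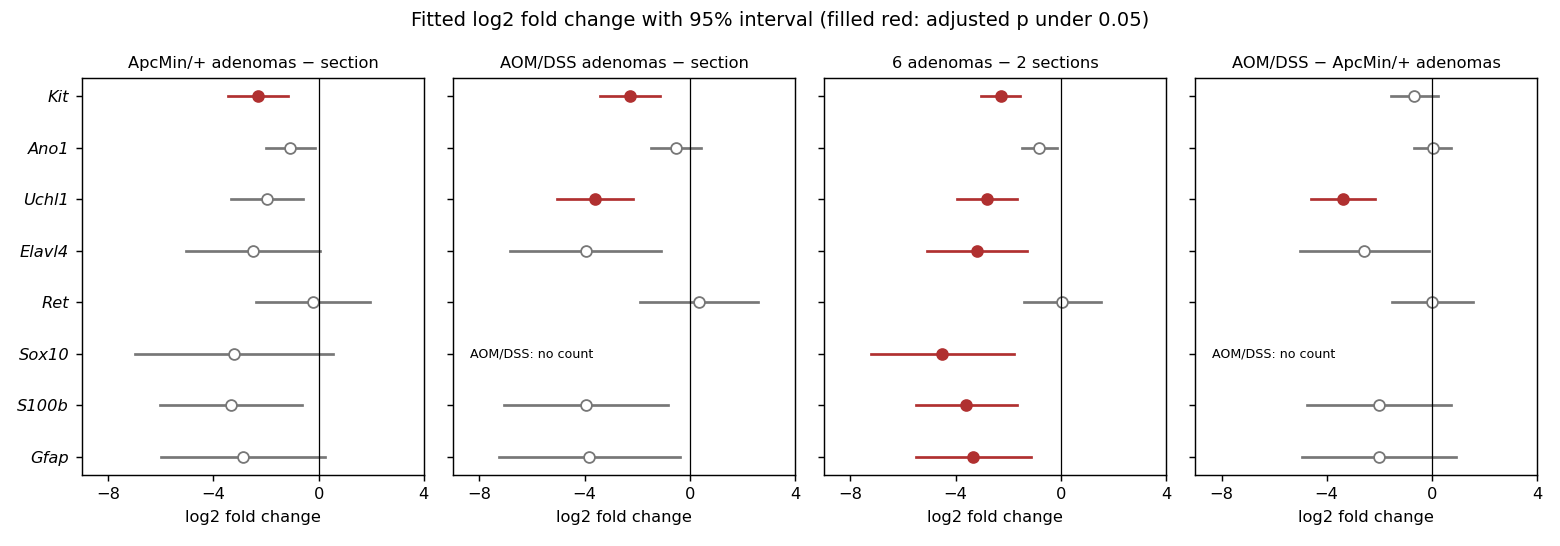
Fitted log2 fold change (points) and 95% interval (lines) of each gene in 4 comparisons, with filled red points for an adjusted p under 0.05. Kit is called in all 3 comparisons with sections, Uchl1 is the only call between adenoma types, and Sox10 is not drawn where the AOM/DSS adenomas held no count, since its fitted value depends on the prior count.

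Between the adenoma types, 1 of the 8 genes was called lower in AOM/DSS, against 7.9% of all genes tested, and 0 were called higher, against 10.2%. This was Uchl1, with 3.40 ± 1.83 CPM in ApcMin/+ adenomas and 0.320 ± 0.106 CPM in AOM/DSS adenomas (SD, n = 3 each), a level 10.4-fold lower with a 95% interval of 4.46 to 24.5. The call was made in all 16 alternative fits, with adjusted p-values up to 0.0446. Uchl1 reached the filter on low values in every ApcMin/+ adenoma and in no AOM/DSS adenoma. It thus entered the test through libraries in which it was high, and the call does not speak for it independently. The AOM/DSS section was also lower than the ApcMin/+ section for Uchl1, by a ratio of 3.36 in CPM between 1 library each, which was not tested. Kit was at 24.1 ± 10.7 and 15.2 ± 4.88 CPM in ApcMin/+ and AOM/DSS adenomas, a difference of -0.67 ± 0.37 (adjusted p = 0.238; 95% interval -1.56 to 0.21).

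Ano1 was at 129 ± 55.1 and 132 ± 20.2 CPM, a difference of 0.03 with a 95% interval of -0.67 to 0.73 (adjusted p = 0.953). For Ret the difference was 0.02 with an interval of -1.53 to 1.57 (adjusted p = 0.989). Elavl4, S100b and Gfap had differences of -2.57 (adjusted p = 0.126), -2.0 (0.254) and -2.01 (0.282). That of Gfap reversed to 0.64 without ApcMin/+ adenoma 3. The CPM of every AOM/DSS adenoma was below that of every ApcMin/+ adenoma for Uchl1, Elavl4 and Sox10, a pattern shared by 20.6% of all genes tested. For Sox10 this rested on 0 counts against 1, 1 and 16, and since 0 counts allow up to 3 per library, a difference from ApcMin/+ adenomas 1 and 2 was not detectable at this depth.

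The difference between the models in the change from section to adenoma was tested by itself, and none of the 8 genes was called by edgeR, against 0% of all genes. At an unadjusted p under 0.05 there were again 0 of the 8, against 7.95% of all genes tested, and DESeq2 called 0 of the 8. The difference was 0.03 ± 0.74 for Kit and -1.64 ± 0.90 for Uchl1 (adjusted p = 0.666), with a 95% interval of -3.79 to 0.51 for Uchl1. The lower Uchl1 of AOM/DSS adenomas was thus not shown to reflect a larger fall from the section. All 8 genes had higher CPM in the ApcMin/+ section than in the AOM/DSS section, by ratios from 1.43 for Ano1 to 3.36 for Uchl1, and for the glial genes by 2.45 (Sox10), 2.63 (S100b) and 2.11 (Gfap). The ApcMin/+ section also stood apart in adipocyte genes, whose summed level was 114 CPM there, 13.6 to 21.5 CPM in its adenomas, 21.8 CPM in the AOM/DSS section and 8.83 to 13.8 CPM in the adenomas of that model. Cfd, which encodes the adipocyte protease adipsin, had 576 counts in the ApcMin/+ section and 0 or 1 in every other library, and Adipoq, the hormone adiponectin, had 166 counts against 0 or 1. Of 6 adipocyte genes tested, 4 were called lower in ApcMin/+ adenomas and 0 in AOM/DSS adenomas. Among all genes tested, 6.35% and 2.63% were called lower there. How much fat or other outer tissue each section held is not stated, and its part in the section levels of the 8 genes was not tested.

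Other genes of the same cells were followed too. Of 30 further enteric neuron genes 27 were tested. Over both models 16 were called lower and 1 higher, against 15.8% and 18.3% of all genes tested. The neuronal median log2 change was -2.94 against 0.07 for all genes. The fallen genes included Hand2, a transcription factor of enteric neuron precursors, at -2.26 ± 0.36 (adjusted p = 0.00655), and Gap43, a growth cone protein, at -3.47 ± 0.67 (0.00988). They also included Nos1, the nitric oxide synthase of inhibitory motor neurons, at -2.37 ± 0.59 (adjusted p = 0.0207), and Calb2, the calcium buffer calretinin, at -4.51 ± 1.14 (0.0211). The gene that rose was Th, tyrosine hydroxylase, at 2.24 ± 0.60 (adjusted p = 0.0261). Calb2, Stmn3, Nefl, Nefm and Chrna3 reached the filter on low values only in both sections and ApcMin/+ adenoma 3. Th did not reach it in either section, with 1 and 5 counts. These genes entered the test through libraries in which they were high, so the neuronal counts and median do not speak for them independently.

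The count of fallen neuronal genes was 0 without the AOM/DSS section, 4 without the ApcMin/+ section and 20 without ApcMin/+ adenoma 3. Hand2 and Gap43 lost their calls without the AOM/DSS section (adjusted p = 0.0505 and 0.0670). Nos1, Calb2 and Th lost theirs without either section (adjusted p up to 0.130, 0.111 and 0.160), and Th also without AOM/DSS adenoma 1 (0.0505). Within models 1 of the 27 was called lower in ApcMin/+ (Hand2) and 5 in AOM/DSS (Hand2, Gap43, Nefm, Gal and Scg2), with medians of -2.26 and -3.59, the latter -3.11 with genes at 0 set to their bounds. Of all genes tested, 6.35% and 2.63% were called lower in ApcMin/+ and AOM/DSS. Both neuronal counts were 17 without ApcMin/+ adenoma 3. The ApcMin/+ count was 0 without any other adenoma, and the AOM/DSS count was 0 without ApcMin/+ adenoma 1 or 2 or AOM/DSS adenoma 1 or 3. Over all 11 marker lists, 12 of the 89 genes called over both models stayed called in every fit with a library left out.

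Of 14 further glial genes, 9 were called lower and 2 higher over both models, against 15.8% and 18.3% of all genes tested. Their median was -1.60. Erbb3, the neuregulin receptor of glia and also of epithelium, fell by 0.97 ± 0.15 (adjusted p = 0.00655), and Lgi4, a secreted glial protein, by 2.02 ± 0.39 (0.00997). Cdh19, a cadherin of neural crest glia, had 67 and 26 counts in the ApcMin/+ and AOM/DSS sections and no count in the AOM/DSS adenomas. Fabp7, a fatty acid binding protein of glia, rose by 1.51 ± 0.45 (adjusted p = 0.0359), from 0.344 CPM in the ApcMin/+ section and 0.250 CPM in the AOM/DSS section to 0.812 ± 0.0807 and 0.891 ± 0.142 CPM in the adenomas. Cdh19 reached the filter on low values only in both sections and ApcMin/+ adenoma 3, and Fabp7 only in the adenomas. Both entered the test through libraries in which they were high.

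The count of fallen glial genes was 1 without the ApcMin/+ section and 4 without the AOM/DSS section. Erbb3 and Lgi4 lost their calls without the ApcMin/+ section (adjusted p = 0.0650 and 0.119), and Fabp7 kept its call in 1 of the 8 fits with a library left out. In ApcMin/+ alone 4 were called lower, Erbb3, Lgi4 and Scn7a among them (8 genes without adenoma 3, 0 without adenoma 1 or 2 or without AOM/DSS adenoma 1 or 3), and in AOM/DSS alone only Cryab was (0 to 4 when an adenoma was left out). Of all genes tested, 6.35% and 2.63% were called lower in ApcMin/+ and AOM/DSS. As a summed level, the 14 genes stood at 32.2% to 55.0% of the section in the adenomas of ApcMin/+ and at 45.1% to 50.9% in those of AOM/DSS. Erbb3 made up most of that sum, with 268 of 399 CPM in the ApcMin/+ section and 224 of 309 CPM in the AOM/DSS section. Without it the other glial genes stood at 22.2% to 53.6% of the section in ApcMin/+ and at 30.5% to 39.7% in AOM/DSS. Sox10, S100b and Gfap were lower relative to their section, at up to 36.6% in ApcMin/+ and up to 12.9% in AOM/DSS.

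Of 8 further Cajal cell genes 7 were tested. Over both models 3 were called lower, namely Etv1, a transcription factor of these cells, at -2.08 ± 0.41 (adjusted p = 0.0102), Thbs4 at -5.27 ± 1.42 (0.0260) and Gpr20 at -1.72 ± 0.56 (0.0478). Etv1 had 9.46 CPM in the ApcMin/+ section against 1.54, 1.46 and 3.85 CPM in the adenomas, and 6.26 CPM in the AOM/DSS section against 2.02, 1.23 and 1.07 CPM, so every adenoma was below both sections. Of all genes tested, 15.8% were called lower over both models. The others of the 7 were not called in that comparison. Prkcq was above its section in every ApcMin/+ adenoma (7.76, 9.13 and 12.9 against 3.55 CPM) and in AOM/DSS adenomas 2 and 3. Edn3 was below its section in every ApcMin/+ adenoma and above it in every AOM/DSS adenoma. Gja5 and Cacna1h lay on both sides of their sections. The median of the 7 was -0.76. None was called lower without the ApcMin/+ section, and 1 without the AOM/DSS section, AOM/DSS adenoma 1 or AOM/DSS adenoma 3. Etv1 lost its call without either section (adjusted p = 0.0869 and 0.0622), while Thbs4 and Gpr20 kept theirs in 4 and 1 of the 8 fits with a library left out. Thbs4 made up most of the summed level of the list, with 448 of 530 CPM in the ApcMin/+ section and 328 of 411 CPM in the AOM/DSS section. Without it the sum stood at 44.2% to 75.4% of the section in ApcMin/+ adenomas and at 55.1% to 68.1% in AOM/DSS adenomas.

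**Figure D4:**
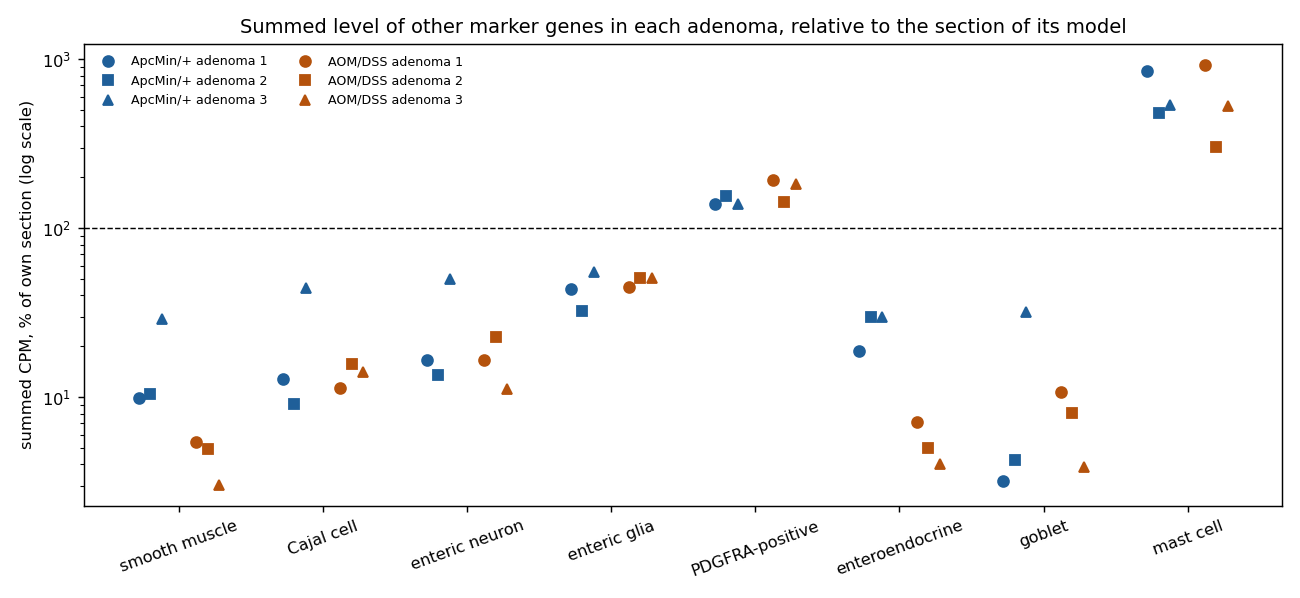
Summed CPM of further marker genes (the 8 genes left out) in each adenoma as a percentage of the section of its model, on a log axis, with the dashed line at 100. Smooth muscle, Cajal cell, neuron, glia, enteroendocrine and goblet sums are below the section in all 6 adenomas (the Cajal cell sum is mostly Thbs4 in the sections, and the glia sum mostly Erbb3), PDGFRA-positive and mast cell sums are above, and ApcMin/+ adenoma 3 is the highest adenoma in the smooth muscle, Cajal cell, neuron, glia and goblet lists.

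Of 11 signalling partners tested, namely ligands and co-receptors of RET, KIT and EDNRB with Ednrb itself and Ece1, 10 had negative changes over both models. Their median was -0.84. Of the 11, 5 were called lower and none higher, against 15.8% and 18.3% of all genes tested. Gdnf, the RET ligand, fell by 1.94 ± 0.57 (adjusted p = 0.0354) and its co-receptor Gfra1 by 3.01 ± 0.89 (0.0350), calls kept in 1 and 2 of the 8 fits with a library left out. Gfra3 and Gfra4, co-receptors for related ligands, fell by 4.96 ± 1.22 and 2.27 ± 0.41 (adjusted p = 0.0192 and 0.00861). Gfra3 reached the filter on low values only in both sections and ApcMin/+ adenoma 3, so it entered the test through libraries in which it was high. Ednrb, the endothelin receptor of neural crest cells, fell by 0.84 ± 0.20 (adjusted p = 0.0168). Gfra3 and Ednrb lost their calls without either section (adjusted p up to 0.136 and 0.153) and Gfra4 without the AOM/DSS section (0.0895). The count of 5 was 1 without either section and 3 without ApcMin/+ adenoma 1 or 2 or AOM/DSS adenoma 2 or 3.

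Kitl, the KIT ligand, rose in ApcMin/+ adenomas, from 168 CPM in the section to 304 ± 15.1 CPM (log2 change 0.86 ± 0.21, adjusted p = 0.0414), while Kit fell there. The Kitl call was lost without ApcMin/+ adenoma 1 (adjusted p = 0.101), ApcMin/+ adenoma 2 (0.0952) or AOM/DSS adenoma 2 (0.0538). Edn3, the EDNRB ligand, fell in ApcMin/+ adenomas by 1.74 ± 0.30 (adjusted p = 0.0207), a call lost without adenoma 1 (0.0646) or 2 (0.0645). Between adenoma types Edn3 was higher in AOM/DSS, at 8.28 ± 1.30 against 2.03 ± 0.0452 CPM (2.02 ± 0.23, adjusted p = 0.00548). Ednrb was lower there, at 4.04 ± 0.671 against 11.6 ± 1.65 CPM (-1.52 ± 0.22, adjusted p = 0.00936). Both of these calls were kept when any adenoma was left out.

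Markers of the tissue around these cells did not all fall. Of 5 genes of PDGFRA-positive cells tested, 3 were called higher over both models and 0 lower, against 18.3% and 15.8% of all genes tested. The median of the 5 was 0.62, and 1 had a negative change. That gene, Kcnn3, was not called. It had 10.3 CPM in the ApcMin/+ section against 0.681, 0.487 and 5.08 CPM in the adenomas. In AOM/DSS it had 8.06 CPM in the section against 0.644, 0.854 and 0 CPM, so this list did not move as 1. Pdgfra and Pdgfrb kept their calls in 7 of the 8 fits with a library left out, and Cd81 in 2. As a summed level, the 5 genes stood at 138% to 193% of the section over the 6 adenomas. Cd81 made up most of that sum in the sections, with 232 of 434 CPM in ApcMin/+ and 229 of 348 CPM in AOM/DSS. All 15 smooth muscle genes tested were called lower over both models (8 without the AOM/DSS section, 12 to 15 without any other library), with a median of -3.43. Their summed level was 7338 CPM in the ApcMin/+ section and 727 to 2133 CPM in its adenomas, and 10590 CPM in the section of the AOM/DSS model and 322 to 574 CPM in its adenomas. None of the 15 was at 0 in any library. ApcMin/+ adenoma 3, the highest ApcMin/+ adenoma for all 8 genes, kept 29.1% of the section's smooth muscle level against 9.91% and 10.4% in the other ApcMin/+ adenomas. How much of each tissue piece was muscle wall is not stated, and its part in the fall of the 8 genes was not tested. In bulk RNA, fewer cells of a type and less RNA per cell cannot be told apart.

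Set against smooth muscle, the genes differed among themselves. Kit had 16.2 CPM per 1000 CPM of summed smooth muscle genes in the ApcMin/+ section and 32.1, 18.2 and 16.5 in its adenomas, and 6.90 in the AOM/DSS section and 18.5, 39.0 and 45.1 in its adenomas. The ratio was therefore no lower in any adenoma than in its section. Uchl1 had 1.81 in the ApcMin/+ section against 2.50 to 3.93 in the adenomas, and 0.373 in the AOM/DSS section against 0.374 to 1.33. Sox10 had 0.352 in the ApcMin/+ section against 0.0624, 0.0581 and 0.344, and S100b had 0.359 against 0.125, 0.116 and 0.279, so both were below the section in all ApcMin/+ adenomas. Gfap had 0.461 there against 0.0624, 0.116 and 0.580, above the section in adenoma 3. In the AOM/DSS model S100b had 0.0945 in the section against 0.224, 0 and 0.133, and Gfap had 0.151 against 0.149, 0.307 and 0.265. The S100b and Gfap ratios thus had no common direction there. Sox10 had 0.0992 in the AOM/DSS section and was at 0 in each of its adenomas. For Ano1 and Ret the ratio was higher in every adenoma than in its section, and for Elavl4 it had no common direction. These ratios are descriptions without a test, and those of the glial genes rest on 0 to 27 counts per adenoma.

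Other cells that carry some of these genes moved in both directions. Over both models 15.8% of all genes tested were called lower. All 11 mast cell genes tested had positive changes over both models and 9 were called higher, where 18.3% of all genes tested were (1 without the ApcMin/+ section, 3 without the AOM/DSS section and 7 to 10 without any 1 adenoma). Their summed level was 16.7 CPM in the ApcMin/+ section and 80.2 to 142 CPM in its adenomas, and 45.6 CPM in the section of the AOM/DSS model and 138 to 421 CPM in its adenomas, so mast cell genes rose where Kit fell. Of 9 goblet and deep crypt secretory genes, 7 were called lower over both models (0 without either section, 5 to 9 without any 1 adenoma), and their sums fell from 29357 CPM in the ApcMin/+ section to 941 to 9400 CPM and from 17411 CPM in the AOM/DSS section to 675 to 1864 CPM. Reg4, on the same list, was not called. It fell less than the sum in AOM/DSS, from 414 CPM in the section to 321, 247 and 299 CPM in the adenomas. In ApcMin/+ it had 882 CPM in the section and 162, 241 and 586 CPM in the adenomas. The list does not separate goblet from deep crypt secretory cells, so its counts and sums do not speak for either alone. Of 15 enteroendocrine genes, 11 were called lower and 1 higher (4 lower without the AOM/DSS section, 8 to 11 without any other library). Their sum was 764 CPM in the ApcMin/+ section and 143 to 229 CPM in its adenomas, and 484 CPM in the section of the AOM/DSS model and 19.4 to 34.6 CPM in its adenomas. The enteroendocrine sums of AOM/DSS adenomas thus lay below those of all ApcMin/+ adenomas, as did Uchl1. Pyy was a large part of the ApcMin/+ sums, with 95.1 of 143, 176 of 229 and 68.8 of 227 CPM in adenomas 1, 2 and 3. It had 1.37, 2.83 and 0.853 CPM in the AOM/DSS adenomas. In ApcMin/+ adenoma 2 Pyy was above its section, which had 167 CPM. The part of either epithelial cell group in the values of Kit and Uchl1 was not tested.

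The genes whose profile over the 8 libraries was most like each of the 8 were found by the root mean square difference of centred log2 CPM among 14534 candidates. For Kit they were Gstt1 (0.26), Pkia and Gpr160, against a median of 1.25 over all candidates. For Ano1 they were Rab3d (0.16), Qsox1 and Atp9a, and for Ret Zdhhc23 (0.35), Irs2 and Gapt. For Uchl1 they were Scnn1g (0.37), Serpina9 and Mgst1, and for Elavl4 Slc2a5 (0.34), Slc2a13 and Kcnma1. For the glial genes they were Gm6086 (0.29), Abat and Fam13a for Sox10, Bcas1 (0.29), Guca2a and Sh3bgr for S100b, and Rgs17 (0.29), Tfcp2l1 and Slc16a5 for Gfap. None of these 24 genes was on any of the 11 marker lists.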

How the data were processed

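RNA from 3 adenomas and 1 non-adenoma section in each of 2 mouse models was sequenced as single-read TruSeq libraries, per the labels' protocols. The authors deposited estimated counts, FPKM values and FPKM ratios per gene, per the file headers. Per the submitters' processing notes the reads were placed on mm9. The aligner, counting tool, annotation and strand setting were not given in the sources used here. Reads of a gene and of an antisense or overlapping partner may therefore be mixed. The lowest deposited count was 1 in every library, so 1 was subtracted from the deposited counts and FPKM and the counts were rounded to whole numbers. The deposited ratios were not used. The table holds 31189 genes, 27 of them with a date as symbol, and no coordinates were taken from it because the reference at hand (GRCm38.p6) is another build.

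The main test was the quasi-likelihood test of edgeR 4.0.16 in R 4.3.3, on TMM-scaled libraries and after the expression filter of that package (minimum count 10, minimum total 15; 17218 genes left), with Benjamini-Hochberg adjustment over all genes tested and calls at an adjusted p under 0.05. The fit had a mean for each of 4 groups (4 residual degrees of freedom), or terms for tissue and model over all 8 libraries (5 residual degrees of freedom). Standard errors were computed as the log2 fold change over the square root of F, and 95% intervals use the moderated degrees of freedom. Totals of 18156741 to 22719895 counts put the limit that 0 counts allow (3 counts) at 0.128 to 0.172 CPM, which covers counting error only. DESeq2 1.42.0 and limma 3.58.1 on FPKM served as alternatives, with other scalings, filters and left-out libraries. The test recovered known changes in simulated counts of the same genes.

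The 8 genes and the 11 lists of other markers were chosen with earlier results of these data known. From each list the text names part of the genes that were called or most abundant, chosen after their values were seen (some list genes are not reported here), and the 3 most similar genes of each of the 8 follow from the likeness measure among genes whose mean log2 CPM was 0 or more.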

Additional observations from a re-analysis of the deposited data

How the results depend on the processing

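In the ApcMin/+ model, the number of the 8 genes called was 3 with DESeq2, 2 without subtracting 1, 3 with limma on FPKM at a pseudocount of 1, 0 with only the 4 libraries of the model, and 0 to 6 when 1 adenoma was left out. All genes called there moved from 2824 to 4440 with DESeq2, 951 with 4 libraries and 354 to 4419 with an adenoma left out. The share called higher, 61.3% in the main fit, was 78.5% with 4 libraries, and 85.2% and 90.1% without ApcMin/+ adenomas 1 and 2. In the AOM/DSS model, 0 of the 8 were called by limma on FPKM at either pseudocount and 0 to 4 with an adenoma left out. All genes called there moved from 862 to 2917 with DESeq2, 479 with limma at a pseudocount of 0.1 and 0 to 2055 with an adenoma left out. Over both models, 2 of the 8 and 3258 genes were called with no term for the model, and 1 to 7 of the 8 and 880 to 5912 genes with a library left out. Between adenoma types, 1 of the 8 was called in every alternative, while all genes called moved from 3122 to 541 with adenoma number as a replicate block and 779 to 2157 with an adenoma left out. The number paired nothing, since same-numbered adenomas had correlations of -0.109, -0.322 and -0.278. For the difference between models, 0 of the 8 were called throughout, and all genes called were 191 with DESeq2 and 1 and 16 with limma at pseudocounts of 0.1 and 1. Some log2 values that were not past the threshold changed sign, and the cause was not tested. With libraries left out, Gfap ranged from -2.55 to 0.64 between adenoma types, and in the difference between models Gfap ranged from -1.47 to 1.72, S100b from -1.77 to 0.86, Kit from -0.24 to 0.41 and Ret from -0.10 to 1.06. Ano1 ranged from -0.16 to 0.44 between adenoma types, and Ret from -0.73 to 0.22 in ApcMin/+, -0.31 to 0.61 in AOM/DSS, -0.26 to 0.34 over both models and -0.63 to 0.54 between adenoma types. With limma on FPKM at pseudocounts of 0.1 and 1, the difference between models was 0.51 and 0.32 for Elavl4, 0.32 and 0.52 for S100b and 0.16 and 0.21 for Gfap, and at a pseudocount of 1 it was 0.22 for Sox10, while Ret in ApcMin/+ was 0.012. Over both models Ret was -0.0052 with DESeq2 size factors and -0.0047 with DESeq2, and between adenoma types -0.0012 with only the 6 adenomas and -0.0056 with the replicate block. Depth limits the glial genes and Elavl4 most.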

Other observations

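A few genes on the neuronal and glial lists differed between adenoma types in calls that were kept when any adenoma was left out. Npy, a neuropeptide of enteric neurons, had 1.55 CPM in the ApcMin/+ section and 9.76, 4.56 and 6.09 CPM in its adenomas, against 10 counts in the AOM/DSS section and 6, 7 and 14 counts in its adenomas (AOM/DSS against ApcMin/+ adenomas -4.03 ± 0.48, adjusted p = 0.00589). Sox2, a transcription factor of glia and of foregut epithelium, had 112, 40 and 151 counts in ApcMin/+ adenomas, 1, 2 and 0 counts in AOM/DSS adenomas, and 5 and 3 counts in the ApcMin/+ and AOM/DSS sections (-6.45 ± 0.91, adjusted p = 0.00909). It reached the filter on low values only in the ApcMin/+ adenomas, so it entered the test through the group in which it was high. Syt1, a synaptic vesicle calcium sensor, had 5.94 ± 1.27 CPM in ApcMin/+ adenomas and 1.37 ± 0.221 CPM in AOM/DSS adenomas (-2.11 ± 0.29, adjusted p = 0.00869). Npy and Sox2 were higher in every ApcMin/+ adenoma than in the ApcMin/+ section, unlike Sox10, S100b and Gfap.

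Elavl2, a relative of Elavl4, went the other way, with 7, 14 and 11 counts in ApcMin/+ adenomas and 134, 35 and 45 counts in AOM/DSS adenomas (2.71 ± 0.60, adjusted p = 0.0278), a call that was lost when any 1 ApcMin/+ adenoma or AOM/DSS adenoma 1 was left out (adjusted p up to 0.0857). Vip, a neuropeptide of inhibitory neurons, had 690 counts in the ApcMin/+ section and 11, 1 and 404 in ApcMin/+ adenomas 1, 2 and 3, and 448 counts in the AOM/DSS section and 2, 1 and 0 in its adenomas.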
